A study of Mus musculus with 10 samples.

Results

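The carboxylesterase genes of families 1, 2 and 3 were described in livers of mice that overexpressed apoptosis signal-regulating kinase 1 (ASK1) in hepatocytes and in livers of their control littermates. The 10 genes were chosen by name, Ces1c, Ces1d, Ces1e, Ces1f, Ces1g, Ces2a, Ces2c, Ces2e, Ces3a and Ces3b, and all 10 were found among the 54532 genes of the deposited table, which held 20 carboxylesterase genes. RNA sequencing was done on 10 livers, 5 from ASK1f/f mice and 5 from ASK1+hep mice. Both genotypes carried a murine ASK1 cDNA in the ROSA26 locus behind a floxed stop cassette on a C57BL/6J background. In ASK1+hep mice a Cre recombinase under the albumin promoter, which is active in hepatocytes, removed the stop, and ASK1f/f littermates had no Cre. All mice received a high fat diet (HFD) from an age of 6 weeks for 7 weeks and were fasted for 5 h before the livers were taken. The libraries held 13367742 to 16163378 reads on genes, and the groups overlapped in depth.

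Carboxylesterases are serine hydrolases of the α/β-hydrolase fold that cut ester, thioester and amide bonds. Most of them sit in the lumen of the endoplasmic reticulum, where they hydrolyze drugs, pesticides and neutral lipids, and liver is among the tissues with the highest activity. Single members are known for separate tasks, from the mobilization of stored triglyceride for very low density lipoprotein (VLDL) to the clearance of ester prodrugs, and in rodents the families grew by tandem duplication, so that several copies lie side by side.

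The level of Map3k5, the gene of ASK1, was examined first, since it tests the labels. Levels are FPKM, fragments per kilobase of the gene length in the deposited table, scaled by a size set for each library. Map3k5 was 6.74, 6.88, 5.77, 4.71 and 19.8 FPKM in ASK1f/f replicates 1 to 5, and 16.4, 11.1, 7.68, 12.4 and 15.2 FPKM in ASK1+hep replicates 1 to 5. The highest value of all was thus that of the library labelled ASK1f/f replicate 5, which went against its label, whereas the other 4 ASK1f/f livers lay below every ASK1+hep liver. Reads of the introduced cDNA and of the endogenous gene cannot be told apart in this table. The fold changes of the carboxylesterase genes that turn on the library labelled ASK1f/f replicate 5, and the counts of genes called, are therefore also given without it. This library was picked after its Map3k5 level had been seen. Refits that leave out each of the other livers are summarized at the end. Hepatocyte identity was clear in all livers, with Alb between 14692 and 25083 FPKM.

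All 20 genes lie on mouse chromosome 8 (GRCm38) in 2 clusters that are 11.2 Mb apart. The first spans 515.6 kb on the minus strand and holds the family 1 genes and Ces5a, with 5 of the 10 genes studied. The second spans 416.1 kb on the plus strand and holds families 2 and 3 and Ces4a, with the remaining 5. Within the second cluster the genes of family 2 came before Ces3a and Ces3b in the order of the chromosome. All 10 are protein-coding genes, and their longest coding transcripts in GENCODE M21 have 12 to 14 exons.

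**Figure D1:**
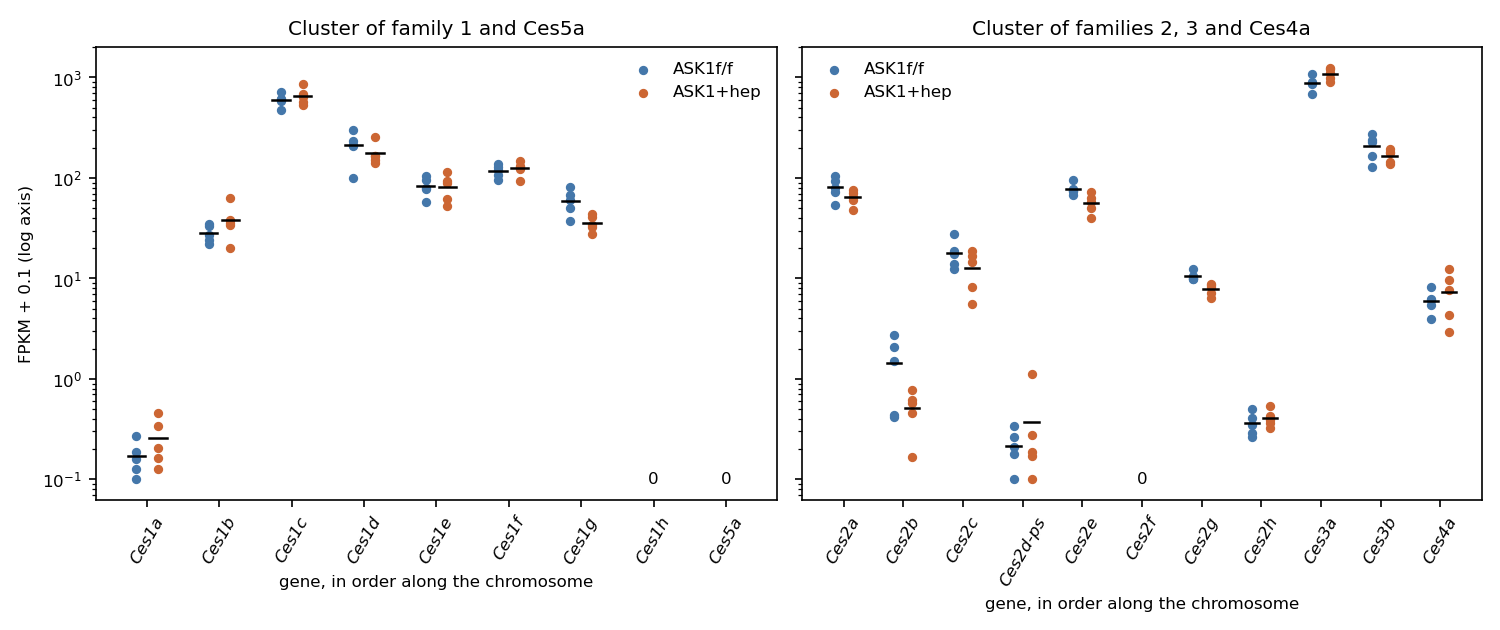
Levels (FPKM + 0.1, log axis) of the 20 carboxylesterase genes in the order in which they lie along chromosome 8, for 5 ASK1f/f (blue) and 5 ASK1+hep (orange) livers, with a line at the group mean and 0 where a gene was listed at 0 in every liver. Within each cluster some genes next to each other differed in level by orders of magnitude, with Ces3a (mean 984 FPKM) beside Ces2h (mean 0.285 FPKM). Other neighbours differed less, such as Ces3a and Ces3b (mean 186 FPKM).

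The members differed among each other in how much sequence they share with other genes, which bears on how reads can be assigned to them. Coding sequences of members of the same family were 72.6% to 95.3% identical over 14 pairs, against 54.7% to 60.4% over 31 pairs from different families. Ces3a and Ces3b formed the closest pair with 95.3% identical bases. Of all 50-base windows along the Ces3a transcript, 30.9% were also found in Ces3b, and of those along Ces3b, 26.1% were found in Ces3a. Windows of Ces2c were shared most, with 42.2% also found in transcripts of the pseudogene Ces2d-ps, of Gm8798, of Gm6831 or of other family 2 genes. The share was 22.2% for Ces2a, mostly with Gm7208, and 17.0% for Ces1c, mostly with Ces1b. For Ces1d, Ces1e, Ces1f, Ces1g and Ces2e it was 1.28% to 3.36%. With windows of 100 bases the share was 9.09% for Ces3a, 7.68% for Ces3b, 15.98% for Ces2c, 10.75% for Ces2a and 1.39% for Ces1c. No such window of Ces1d, Ces1e, Ces1f, Ces1g or Ces2e was shared. Levels of Ces3a, Ces3b, Ces2c and Ces2a are thus less certain as values of 1 gene. For Ces1c this holds mainly for matches as short as 50 bases. The treatment of reads that map to several genes is not given in the sources used here. Gm45909 overlaps Ces1d on the same strand and Gm45724 overlaps Ces3a on the opposite strand.

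RefSeq promoter windows (GRCm38.p6, 250 bases before and 50 after the gene's start) were at hand for 7 of the 10 genes, Ces1c, Ces1e, Ces1g, Ces2a, Ces2c, Ces2e and Ces3b. Those of Ces1g and Ces2e are shown because these members had the lowest p-values between the genotypes, and those of Ces1c and Ces2a because each holds the same letters as one of them. Only the bases before the start of the gene in the deposited table are printed, 5′ to 3′ on the strand of the gene, at chr8:93337309-93337459 for Ces1g and chr8:93131284-93131533 for Ces1c (minus strand), and at chr8:104926010-104926259 for Ces2e and chr8:104733753-104734002 for Ces2a (plus strand). Capitals mark TTATGTAA in the family 1 genes and GAACTTTGC, the reverse complement of GCAAAGTTC, in the family 2 genes. The start of Ces1g in RefSeq lies 99 bases inside the gene as the table places it, and these bases were left out.
Ces1g: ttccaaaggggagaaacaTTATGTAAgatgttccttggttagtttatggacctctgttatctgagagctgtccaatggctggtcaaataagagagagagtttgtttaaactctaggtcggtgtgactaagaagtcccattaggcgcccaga
Ces1c: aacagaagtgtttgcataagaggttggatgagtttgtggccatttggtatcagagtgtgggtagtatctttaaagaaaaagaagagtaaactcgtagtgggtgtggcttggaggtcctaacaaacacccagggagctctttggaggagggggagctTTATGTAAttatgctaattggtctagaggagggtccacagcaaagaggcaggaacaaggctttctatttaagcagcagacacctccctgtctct
Ces2e: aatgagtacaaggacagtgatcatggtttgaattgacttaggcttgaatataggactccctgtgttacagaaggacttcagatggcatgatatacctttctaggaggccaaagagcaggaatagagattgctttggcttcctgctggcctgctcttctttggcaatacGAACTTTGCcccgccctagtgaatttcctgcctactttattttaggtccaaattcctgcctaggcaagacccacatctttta
Ces2a: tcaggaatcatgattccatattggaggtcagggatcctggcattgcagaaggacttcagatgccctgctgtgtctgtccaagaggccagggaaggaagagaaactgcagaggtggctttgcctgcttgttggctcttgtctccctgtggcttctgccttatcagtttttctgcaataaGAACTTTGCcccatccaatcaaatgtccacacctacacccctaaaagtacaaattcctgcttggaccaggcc

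The sets of letters below were searched on both strands, and they were chosen after the windows had been read. TTATGTAA, a form of the D-box bound by the clock output factors Dbp, Tef and Hlf, was found in Ces1c, Ces1e and Ces1g, that is in 3 of 7 members with a window, and outside the 10 genes in Ces1a and Ces1b. Counted from the start in the deposited table, it stood at −133 to −126 in Ces1g, at −94 to −87 in Ces1c and at −81 to −74 in Ces1e. Of all 32851 promoter windows of the table, 0.938% held it. GCAAAGTTC, which contains the letters CAAAG that recur in binding elements of the hepatocyte nuclear factor HNF4, was found in Ces2a at −72 to −64 and in Ces2e at −82 to −74, and in 0.247% of all windows. TATAAA was found in Ces1g and Ces3b and in 13.6% of all windows, and GTTAAT in Ces3b and in 7.1% of all windows. The TATAAA match of Ces1g lies in the part of its window that is not printed above, inside the gene as the deposited table places it. A match describes letters and does not show that a factor binds there.

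The 10 genes differed widely in level, and their order was the same in both genotypes. Ces3a, an esterase of the hepatic endoplasmic reticulum, was the most abundant with 984 ± 175 FPKM (mean ± SD, n = 10 livers) and had the 59th highest level among the 13306 genes that passed the filter on low values. Ces1c, which lacks the retention signal of its relatives and is secreted as the major esterase of mouse plasma, followed with 628 ± 108 FPKM. Ces1d, also named triacylglycerol hydrolase for its part in VLDL lipidation, reached 193 ± 60.2 FPKM and Ces3b, the close copy of Ces3a, 186 ± 46.8 FPKM.
The middle of the order was formed by Ces1f with 121 ± 17.4 FPKM, Ces1e with 82.7 ± 20.7 FPKM, Ces2a with 72.2 ± 17.2 FPKM and Ces2e with 67.1 ± 15.4 FPKM. Ces1e encodes egasyn, which holds β-glucuronidase in the endoplasmic reticulum. Ces2a and Ces2e belong to the family of human CES2, which cleaves esters with a small acyl group. Ces1g, an esterase whose loss in mice is known to cause fatty liver and hyperlipidemia, had 47.4 ± 16.9 FPKM, and Ces2c, a further relative of CES2, was lowest with 15.3 ± 6.19 FPKM.

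Neighbours in this order were compared within each liver by an exact permutation test, two-sided, that flips the signs of the differences of log2(FPKM + 1), with Benjamini-Hochberg adjustment over the 9 pairs. Ces3a exceeded Ces1c in 10 of 10 livers (ratio of means 1.57, exact adjusted p = 0.0044) and Ces1c exceeded Ces1d in 10 of 10 livers (ratio 3.25, exact adjusted p = 0.0044). The raw p of both, 0.00195, is the smallest that 10 livers allow. Ces1d and Ces3b were not distinguished, as Ces1d was higher in 5 of 10 livers (mean difference 0.03 ± 0.42 (SD) on the log2 scale, exact adjusted p = 0.846). Nor were Ces2a and Ces2e, with Ces2a higher in 6 of 10 livers (mean difference 0.11 ± 0.24 (SD) on the log2 scale, exact adjusted p = 0.235). The 5 other neighbour pairs differed, with exact adjusted p-values from 0.0044 to 0.0251, the latter for Ces1e over Ces2a in 9 of 10 livers. These levels rest on the gene length in the deposited table, which for some genes exceeds that of the longest coding transcript. It was 3285 against 1926 bases for Ces1f and 2359 against 1960 bases for Ces2a. The order of genes close in level, such as Ces3b over Ces1f and Ces1e over Ces2a, thus depends on the length used. In the 9 livers other than the library labelled ASK1f/f replicate 5, the same number of pairs, 7 of 9, passed 0.05, and the exact adjusted p of Ces2a over Ces2e was 0.0527.

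Ces3a and Ces1c together made up most of the carboxylesterase transcripts in every liver. The summed level of the 10 genes was between 1927 and 2832 FPKM, with means of 2333 ± 353 FPKM for ASK1f/f and 2462 ± 232 FPKM for ASK1+hep (SD, n = 5 each). Ces3a held 32.7% to 47.2% of this sum and Ces1c 23.6% to 31.9%. Family 2 held 6.82%, 8.07%, 6.54%, 9.21% and 7.23% in ASK1f/f replicates 1 to 5, and 5.36%, 4.00%, 5.34%, 6.07% and 6.37% in ASK1+hep replicates 1 to 5. Every ASK1+hep liver thus had a smaller family 2 share than every ASK1f/f liver, the library labelled ASK1f/f replicate 5 included. The summed level of family 2 did overlap, with 139.3 to 227.8 FPKM in ASK1f/f and 108.5 to 161.5 FPKM in ASK1+hep livers. The share of Ces1g likewise did not overlap, with 1.95% to 2.89% in ASK1f/f and 1.16% to 1.70% in ASK1+hep livers. The share of Ces3a was 32.7% to 38.0% in ASK1f/f replicates 1 to 4 but 45.5% in the library labelled ASK1f/f replicate 5, within the 37.7% to 47.2% of ASK1+hep livers. Shares are given as a description and were not tested, and a share also moves when the other members do.

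**Figure D2:**
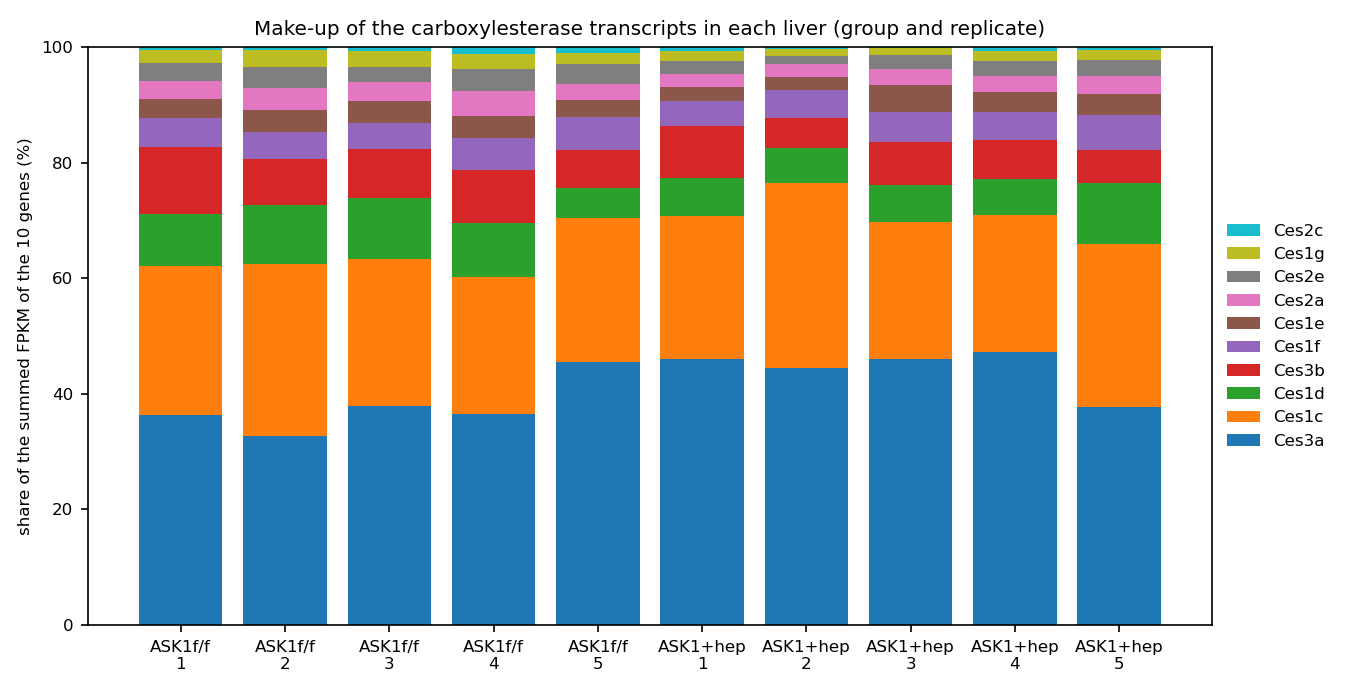
Share of each gene in the summed FPKM of the 10 carboxylesterase genes (percent, stacked to 100) in each of the 10 livers, labelled by group and replicate. Ces3a and Ces1c make up most of every bar, and the family 2 genes together hold 6.54% to 9.21% in ASK1f/f and 4.00% to 6.37% in ASK1+hep livers.

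Next, levels were compared between the genotypes with limma on log2(FPKM + 1) over all 13306 genes that passed the filter, and fold changes are on that scale as ASK1+hep minus ASK1f/f. All 10 carboxylesterase genes passed the filter. None of the 10 passed an adjusted p of 0.05, and neither did any other gene (0.0% of genes tested). The paper used another test, DESeq2 on read counts, and reported strong upregulation of Fgf21 in ASK1+hep livers. Here Fgf21 passed only in some of the refits given at the end. At an unadjusted p under 0.05, 2 of the 10 were called, Ces1g and Ces2e, both lower in ASK1+hep livers, beside 768 of all genes (5.77%), of which 362 were lower (2.72%). The mean difference was negative for 7 of the 10 genes and positive for 3, while 48.0% of all genes had a positive one. The median log2 fold change was −0.24, beside −0.0065 over all genes. When FPKM were rescaled by all reads on genes, 3 of the 10 were called, all lower, beside 862 of all genes (6.48%), of which 591 were lower (4.44%), and the share of higher genes among all genes at an unadjusted p under 0.05 went from 52.9% to 31.4%. In bulk liver, fewer cells of a type and less RNA per cell cannot be told apart.

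**Figure D3:**
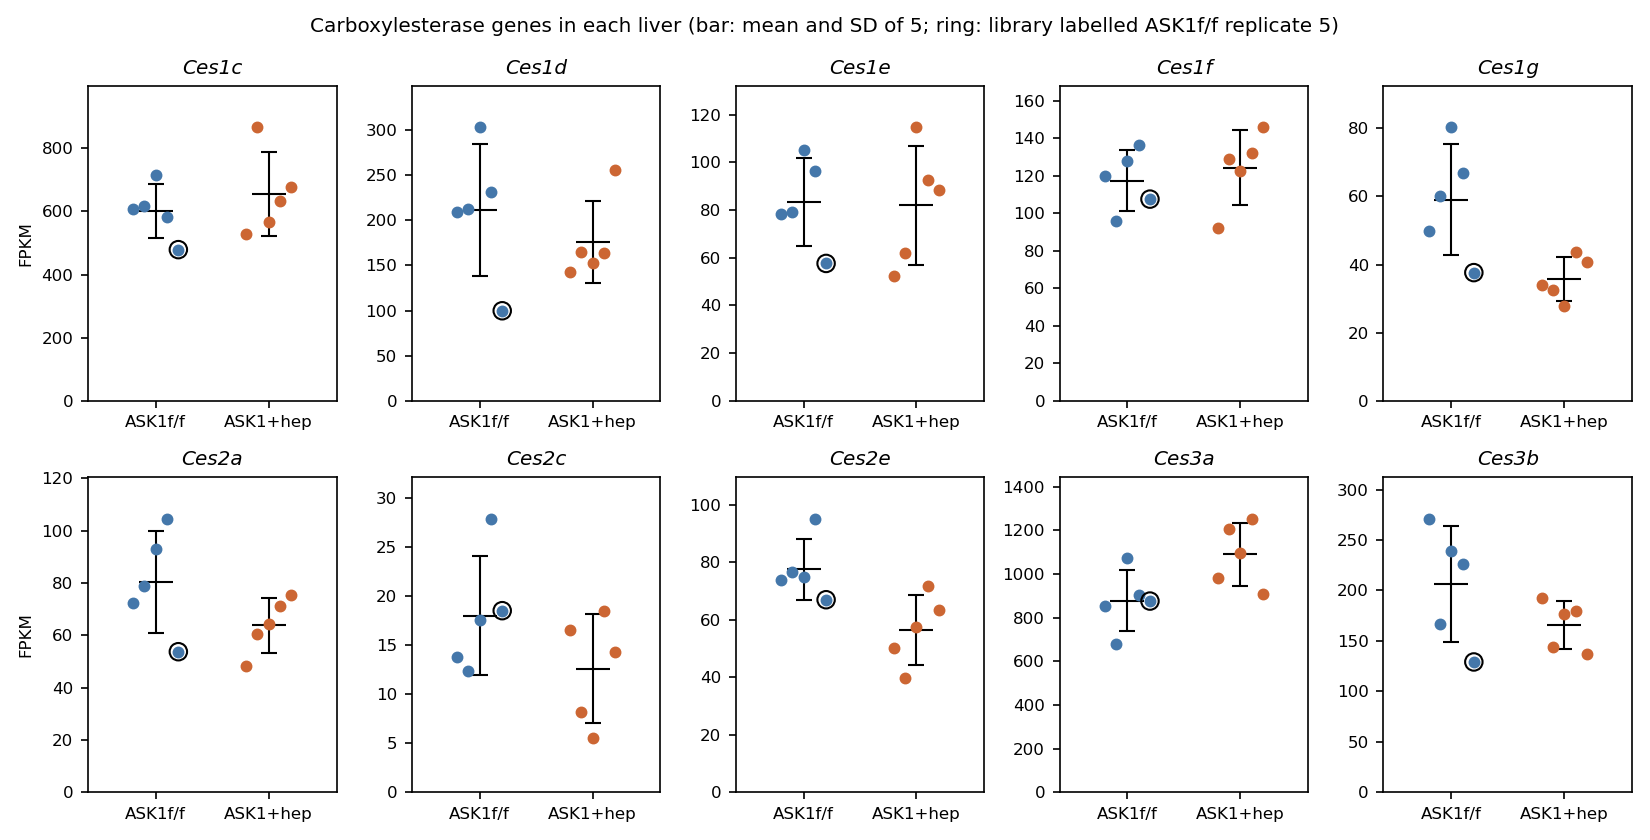
FPKM of the 10 carboxylesterase genes in each liver (linear axes from 0), with 5 ASK1f/f livers in blue and 5 ASK1+hep livers in orange, a bar for the mean and SD of each group and a ring around the library labelled ASK1f/f replicate 5. For Ces1g and Ces2e the groups overlap by few livers, and the ringed library is the lowest ASK1f/f value of both.

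Ces1g, the family 1 esterase that limits liver lipid, had the lowest unadjusted p of the 10 genes. Ces1g (ENSMUSG00000057074, chr8:93302369-93337308) was 49.8, 60.2, 80.3, 67.0 and 37.6 FPKM in ASK1f/f replicates 1 to 5, and 34.1, 32.5, 27.7, 43.8 and 40.9 FPKM in ASK1+hep replicates 1 to 5. Of the ASK1f/f livers 4 lay above every ASK1+hep liver, and the exception was the library labelled ASK1f/f replicate 5. The means were 59.0 ± 16.3 and 35.8 ± 6.47 FPKM (SD, n = 5), a ratio of 0.607, from 913 to 2869 reads per liver. The log2 fold change was −0.68 (SE 0.196, 95% interval −1.11 to −0.25, limma adjusted p = 0.804, unadjusted rank 77 of 13306 genes), and the exact two-sided permutation p over all 252 divisions of the livers was 0.0238, where 0.00794 is the smallest possible. Without the library labelled ASK1f/f replicate 5 the groups no longer overlapped (log2 fold change −0.83, SE 0.171, limma adjusted p = 0.283).

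Ces2e, a family 2 esterase of liver and intestine, was the other gene at an unadjusted p under 0.05. Ces2e (ENSMUSG00000031886, chr8:104926260-104934672) was 73.9, 76.7, 74.9, 95.3 and 67.0 FPKM in ASK1f/f replicates 1 to 5, and 50.1, 39.98, 57.4, 71.8 and 63.6 FPKM in ASK1+hep replicates 1 to 5. Of the ASK1+hep livers 4 lay below every ASK1f/f liver, and ASK1+hep replicate 4 lay above the library labelled ASK1f/f replicate 5 but below the others. The means were 77.6 ± 10.6 and 56.6 ± 12.2 FPKM (SD, n = 5). The log2 fold change was −0.47 (SE 0.159, 95% interval −0.81 to −0.12, limma adjusted p = 0.812), with an exact permutation p of 0.0159. It was −0.52 without the library labelled ASK1f/f replicate 5 (SE 0.171, limma adjusted p = 0.690), and the groups then did not overlap.

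Non-overlapping groups were counted as well. With all 10 livers none of the 10 genes had them, beside 115 of 13306 genes (0.864%). Without the library labelled ASK1f/f replicate 5, 2 of the 10 had them, Ces1g and Ces2e, beside 320 genes (2.4%). For both genes it was the only ASK1f/f liver that overlapped ASK1+hep livers, so its removal fixed this outcome. In the same 9 livers 5 of the 10 genes were lower at an unadjusted p under 0.05, beside 371 of all genes (2.79%): Ces1d, Ces1g, Ces2a, Ces2e and Ces3b. That library had the lowest level among ASK1f/f livers for Ces1c, Ces1d, Ces1e, Ces1g, Ces2a, Ces2e and Ces3b, but not for Ces1f, Ces2c and Ces3a. No adjusted p of the 10 genes was below 0.283 in any setting.

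The other family 2 members also had lower means in ASK1+hep livers. Ces2a was 72.6, 78.9, 92.8, 104.6 and 53.8 FPKM in ASK1f/f replicates 1 to 5, and 48.2, 60.4, 64.5, 71.2 and 75.3 FPKM in ASK1+hep replicates 1 to 5. Its groups overlapped, and the library labelled ASK1f/f replicate 5 was the second lowest of all livers. The log2 fold change was −0.31 (SE 0.182, 95% interval −0.71 to 0.09, limma adjusted p = 0.812), with an exact permutation p of 0.151, and it was −0.44 (SE 0.160, limma adjusted p = 0.741) without that library. Ces2c was the most variable of the 10 genes, with a 5.08-fold span from 5.50 FPKM in ASK1+hep replicate 3 to 27.9 FPKM in ASK1f/f replicate 4. Its groups overlapped widely (18.0 ± 6.09 and 12.6 ± 5.55 FPKM, log2 fold change −0.55, SE 0.306, limma adjusted p = 0.812). The value ran from −0.31 without ASK1+hep replicate 3 to −0.70 without ASK1+hep replicate 4, where the unadjusted limma p was 0.0443, and it was −0.52 (SE 0.339, limma adjusted p = 0.883) without the library labelled ASK1f/f replicate 5.

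Ces3a was the only one of the 10 with a higher mean in ASK1+hep livers by more than 0.3 on the log2 scale. Ces3a (ENSMUSG00000069922, chr8:105048601-105058413) was 854, 681, 1075, 905 and 877 FPKM in ASK1f/f replicates 1 to 5, and 985, 1208, 1097, 1255 and 908 FPKM in ASK1+hep replicates 1 to 5. Of the ASK1f/f livers 4 lay below every ASK1+hep liver, and ASK1f/f replicate 3 lay above 2 of them. The means were 878 ± 140 and 1090 ± 146 FPKM (SD, n = 5), with a log2 fold change of 0.32 (SE 0.165, 95% interval −0.04 to 0.68, limma adjusted p = 0.812) and an exact permutation p of 0.0476. The value was as large without the library labelled ASK1f/f replicate 5 (0.32, SE 0.184, limma adjusted p = 0.882). With 1 liver left out it ran from 0.23 without ASK1f/f replicate 2 to 0.39 without ASK1f/f replicate 3. It was 0.24 when FPKM were rescaled by all reads on genes.
Its neighbour and close copy Ces3b differed in the opposite sense, with 271, 167, 239, 226 and 129 FPKM in ASK1f/f replicates 1 to 5 and 192, 144, 177, 179 and 137 FPKM in ASK1+hep replicates 1 to 5. The Ces3b groups overlapped (log2 fold change −0.28, SE 0.201, limma adjusted p = 0.814, exact permutation p = 0.230), and the value was −0.43 (SE 0.172, limma adjusted p = 0.793) without the library labelled ASK1f/f replicate 5. The ratio of Ces3a to Ces3b was 3.15, 4.09, 4.50, 4.00 and 6.78 in ASK1f/f replicates 1 to 5, and 5.12, 8.40, 6.20, 7.00 and 6.64 in ASK1+hep replicates 1 to 5. Every ASK1+hep liver exceeded ASK1f/f replicates 1 to 4, whereas the library labelled ASK1f/f replicate 5 lay among the ASK1+hep livers. Shared reads of this pair limit the ratio, and it was not tested.

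The 4 other family 1 genes had intervals that included no difference. Ces1d was 209, 212, 303, 232 and 99.7 FPKM in ASK1f/f replicates 1 to 5, and 142, 165, 152, 164 and 255 FPKM in ASK1+hep replicates 1 to 5. A single liver of each group stood apart, the library labelled ASK1f/f replicate 5 as the lowest of all and ASK1+hep replicate 5 as the second highest. The log2 fold change of Ces1d was −0.21 (SE 0.267, 95% interval −0.79 to 0.37, limma adjusted p = 0.864), and −0.46 (SE 0.192, limma adjusted p = 0.796) without the library labelled ASK1f/f replicate 5.
Ces1c had means of 601 ± 84.9 and 655 ± 132 FPKM (log2 fold change 0.11, 95% interval −0.26 to 0.48, limma adjusted p = 0.883), with the highest value, 867 FPKM, in ASK1+hep replicate 2. Ces1e had 83.4 ± 18.4 and 82.0 ± 25.0 FPKM (log2 fold change −0.05, 95% interval −0.54 to 0.44, limma adjusted p = 0.966). Ces1f was the steadiest of the 10 with 92.3 to 146.0 FPKM over all livers and means of 117 ± 16.1 and 124 ± 19.9 FPKM. Its log2 fold change was 0.08 (95% interval −0.24 to 0.40, limma adjusted p = 0.908). The sign for Ces1e and Ces1f changed under some alternatives, so no direction is given for either.

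**Figure D4:**
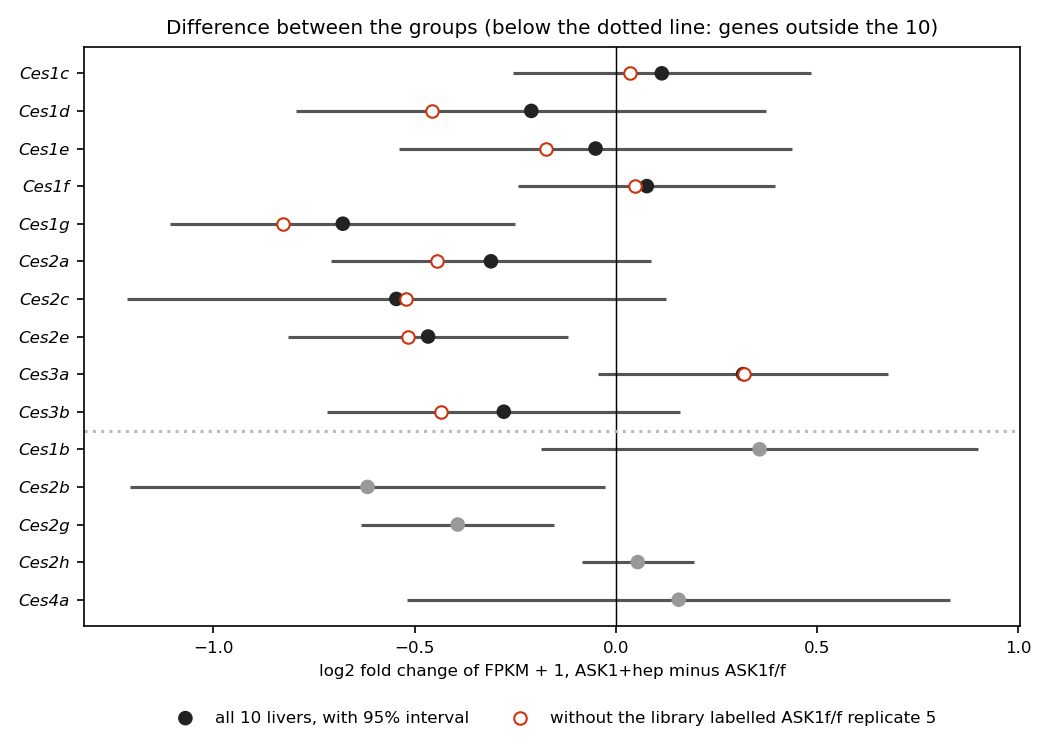
Log2 fold change of FPKM + 1 (ASK1+hep minus ASK1f/f) with its 95% interval for the 10 carboxylesterase genes (black) and for 5 further carboxylesterase genes that passed the filter (grey, below the dotted line), and the value without the library labelled ASK1f/f replicate 5 (open red, for the 10 genes). The intervals of Ces1g, Ces2e, Ces2b and Ces2g exclude 0 before any adjustment for the 13306 genes tested.

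Of the 10 further carboxylesterase genes of the table, 5 passed the filter. Ces2g, another relative of human CES2, was 9.75, 10.4, 12.3, 10.1 and 9.87 FPKM in ASK1f/f replicates 1 to 5, and 7.09, 8.14, 6.34, 8.55 and 8.75 FPKM in ASK1+hep replicates 1 to 5. Its groups did not overlap even with the library labelled ASK1f/f replicate 5 (log2 fold change −0.39, SE 0.110, limma adjusted p = 0.764), and its exact permutation p of 0.00794 is the smallest that 5 against 5 livers allow. Ces2b lay at 1.34 ± 1.03 and 0.418 ± 0.225 FPKM (log2 fold change −0.62, SE 0.270, limma adjusted p = 0.812), with 3 reads in the lowest liver. The log2 fold changes were −0.41 for Ces2g (limma adjusted p = 0.593) and −0.58 for Ces2b (limma adjusted p = 0.867) when the library labelled ASK1f/f replicate 5 was left out, and Ces2b then no longer had an unadjusted p under 0.05. Of the 6 family 2 genes that passed the filter, members included, 5 had a lower mean in ASK1+hep livers, and Ces2h did not (0.261 ± 0.0955 and 0.309 ± 0.0839 FPKM). Over all genes tested, 48.0% had a positive log2 fold change.
Ces1b, which shares windows with Ces1c, had 28.1 ± 5.44 and 38.2 ± 15.9 FPKM (log2 fold change 0.36, SE 0.248, limma adjusted p = 0.812), and Ces4a 5.91 ± 1.56 and 7.31 ± 3.87 FPKM (limma adjusted p = 0.911). Ces1a and Ces2d-ps did not pass the filter (at most 0.355 and 1.02 FPKM). Ces1h, Ces2f and Ces5a were listed at 0 in all livers.

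Variation from liver to liver was compared between members. After group means were removed, Pearson's r of log2(FPKM + 1) over the 10 livers was positive in 41 of 45 pairs of the 10 genes with a median of 0.41. Over all pairs of the 3257 genes with at least 10 FPKM, 54.3% were positive, the median was 0.073 and the middle 90% ran from −0.77 to 0.84. Without the library labelled ASK1f/f replicate 5, 35 of the 45 pairs were positive with a median of 0.31, beside 54.2% and a median of 0.0781 over all pairs, and Ces3b then had a negative r with Ces1c, Ces1d, Ces1f, Ces1g and Ces2a (−0.44 to −0.026). The highest values were found for Ces1d with Ces2a (r = 0.83), Ces1d with Ces1g (r = 0.83), Ces1e with Ces2a (r = 0.81) and Ces1g with Ces2a (r = 0.78). Without that library these 4 pairs had r of 0.65, 0.65, 0.74 and 0.60. Pairs within a cluster had a median r of 0.44 (20 pairs) and pairs from different clusters 0.38 (25 pairs), and the lowest value was −0.24 for Ces1c with Ces2e. Ces3a and Ces3b had r = 0.33. The livers share library, depth and similar sequence, so r is given as a description over 10 points.

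**Figure D5:**
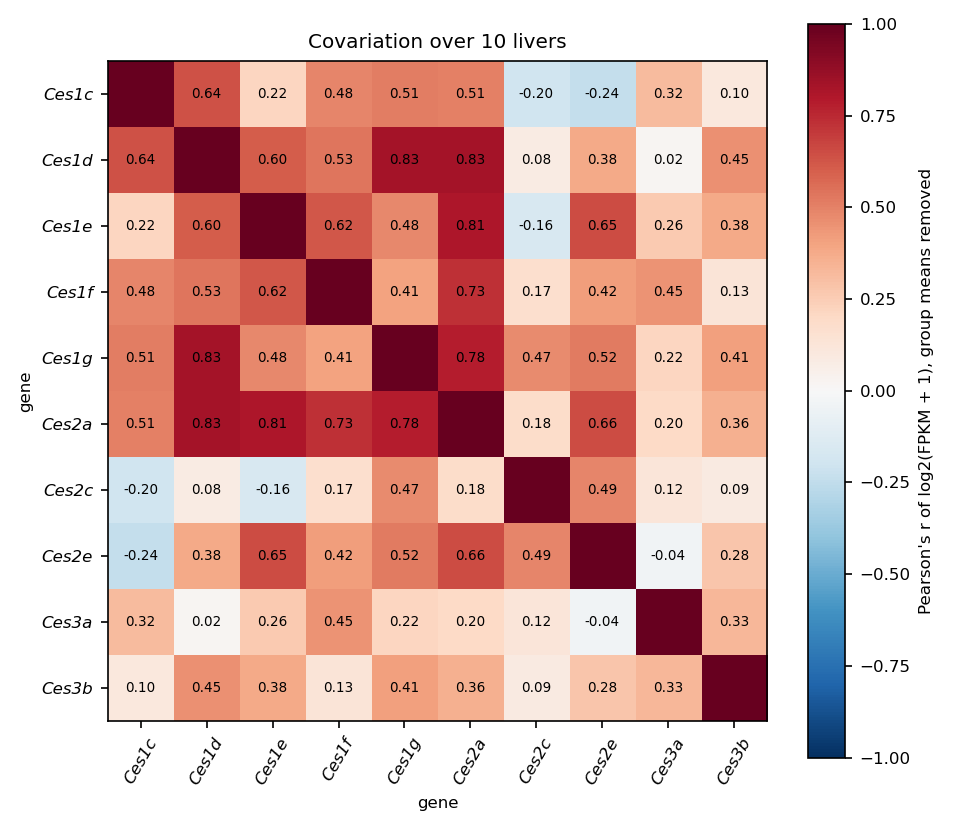
Pearson's r of log2(FPKM + 1) between the 10 carboxylesterase genes (rows and columns) over 10 livers after removal of the group means, on a colour scale from −1 (blue) to 1 (red). The highest values, 0.78 to 0.83, are those of Ces1d with Ces2a, Ces1d with Ces1g, Ces1e with Ces2a and Ces1g with Ces2a, and Ces2c has values near 0 with several members.

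For the most abundant member of each family, the genes outside the family with the most similar pattern over the 10 livers were named by Pearson's r of log2(FPKM + 1). For Ces1c these were Slc7a6os (r = 0.94), Cep44 (r = 0.94) and Eci2 (r = 0.91), an enoyl-CoA isomerase of fatty acid oxidation with 44.5 and 48.1 FPKM in the groups. For Ces2a they were Arhgap24 (r = 0.87), Cdc5l (r = 0.86) and Gm9958 (r = 0.86). For Ces3a they were Sat2 (r = 0.93), A2ml1 (r = 0.91) and Gm31814 (r = 0.90). These are the highest of 13306 values each, and no test was made.

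The members were set beside other genes of ester and lipid handling and of their known regulation. Over all genes tested, 5.77% had an unadjusted limma p under 0.05, and 5.85% without the library labelled ASK1f/f replicate 5. The lists of 17 and 18 genes below, with 1 such gene each, lie near this share. Among 22 tested of 23 other lipid and xenobiotic ester hydrolases, 3 had an unadjusted p under 0.05, all higher in ASK1+hep livers, and 0 passed the adjusted threshold. These were Pnpla2, which encodes adipose triglyceride lipase (40.7 ± 5.84 and 54.7 ± 10.1 FPKM, limma adjusted p = 0.812), its inhibitor G0s2 (99.95 ± 35.9 and 214 ± 126 FPKM, limma adjusted p = 0.812) and the cholesterol ester hydrolase Nceh1 (8.09 ± 0.782 and 9.97 ± 1.37 FPKM, limma adjusted p = 0.812). The median log2 fold change of this list was 0.06, against −0.24 of the 10 carboxylesterase genes. Of 18 genes of VLDL assembly and ester synthesis only Mogat1, a monoacylglycerol acyltransferase, had an unadjusted p under 0.05 (0.912 ± 0.280 and 2.48 ± 2.06 FPKM, limma adjusted p = 0.812).
Of 17 regulators known to act on carboxylesterase genes, Nr0b2 had an unadjusted p under 0.05. Nr0b2 encodes the small heterodimer partner, a repressor of other nuclear receptors (19.1 ± 8.13 and 40.8 ± 12.8 FPKM, log2 fold change 1.08, limma adjusted p = 0.712). Of 16 tested target genes of CAR and PXR, the xenobiotic receptors that induce family 2 genes, Cyp3a11 was higher (121 ± 84.4 and 323 ± 154 FPKM, limma adjusted p = 0.804) and Aldh1a7 lower (103 ± 16.7 and 79.5 ± 2.98 FPKM, limma adjusted p = 0.812) at an unadjusted p under 0.05, and the median over the list was −0.06. Without the library labelled ASK1f/f replicate 5, Pnpla2, G0s2, Mogat1, Nr0b2 (log2 fold change 1.29, limma adjusted p = 0.193), Cyp3a11 (1.85, limma adjusted p = 0.283) and Aldh1a7 kept an unadjusted p under 0.05 and Nceh1 did not, while Cyp2c29 and Cyp2c50, 2 further CAR and PXR targets, had one in addition, both lower.

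Markers of the cells a liver sample can hold were measured in the same libraries. Their counts also stand beside 5.77% of all genes at an unadjusted limma p under 0.05. Of 8 hepatocyte markers 1 had an unadjusted p under 0.05, Ttr, with 3725 ± 326 and 5531 ± 1703 FPKM (limma adjusted p = 0.812). Of 5 erythroid markers 2 had one, Hba-a2 (12.7 ± 4.12 and 31.6 ± 14.5 FPKM, limma adjusted p = 0.712) and Hbb-bt (19.7 ± 3.45 and 33.1 ± 14.9 FPKM, limma adjusted p = 0.812), and the summed level ran from 333 to 490 FPKM for ASK1f/f and from 324 to 1053 FPKM for ASK1+hep. All 7 Kupffer cell markers had a lower mean in ASK1+hep livers, none at an unadjusted p under 0.05 (sum 89.5 to 152 and 56.8 to 143 FPKM, lowest p for Adgre1, limma adjusted p = 0.812). Endothelial (sum 23.1 to 33.6 and 19.1 to 33.4 FPKM), stellate cell (37.3 to 75.7 and 45.7 to 84.3 FPKM) and cholangiocyte markers (13.5 to 32.7 and 15.6 to 28.3 FPKM) had 0 of 5 genes each at an unadjusted p under 0.05, with the lowest p for Stab2, Dcn and Krt7.
Among adipocyte markers Cidec, which steatotic hepatocytes also express, was higher at an unadjusted p under 0.05 (16.5 ± 20.9 and 47.8 ± 48.2 FPKM, limma adjusted p = 0.812), while Adipoq was at most 0.0526 FPKM and Lep and Ucp1 were listed at 0. Of the 8 adipocyte markers 3 were tested, and the log2 fold change was positive for 2, Cidec included, and negative for 1. The summed level of the list was 11.2 to 203.7 FPKM in ASK1f/f and 17.6 to 294.8 FPKM in ASK1+hep livers. The intestine is another site of family 2 expression, and of its markers Cdx2 and Sis were listed at 0 and Vil1 was at most 0.135 FPKM. Only Fabp2 was tested (limma adjusted p = 0.817), and 6 of the 7 markers stayed under 1 FPKM in every liver. The summed level of the list was 104.6 to 143.0 FPKM in ASK1f/f and 96.9 to 232.7 FPKM in ASK1+hep livers, nearly all of it from Fabp2. Of the pancreatic acinar markers Amy2b and Cel were listed at 0, and Cela2a lay at 0.415 ± 0.0859 and 0.598 ± 0.0668 FPKM (limma adjusted p = 0.812). Xist was at most 0.0129 FPKM, and 4 genes of the Y chromosome were tested with 0 at an unadjusted p under 0.05. Without the library labelled ASK1f/f replicate 5, Hba-a2, Cidec and Cela2a kept an unadjusted p under 0.05, Ttr and Hbb-bt did not, and the stellate cell markers Reln and Dcn had one in addition, both lower. The part of the erythroid and Kupffer cell differences in the carboxylesterase values was not tested.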

How the data were processed

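The authors deposited 1 table of FPKM per gene for 10 livers, with gene length and position. Per the paper's methods, polyadenylated RNA was sequenced, reads were mapped with Hisat2 and counted with FeatureCounts, and the authors used DESeq2. The processing notes name fastp. Build and strand setting are not given in the sources used here, but all 10 carboxylesterase genes have the positions of GENCODE M21 (GRCm38).

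FPKM times length gave whole multiples of 1 read for 100% of values (tolerance 0.01), which supplied depth, a filter on low genes (10 or more reads in 5 or more livers after scaling to the median depth, and 15 overall) and limma-voom. The library size implied by the FPKM was 0.981 to 1.06 times the reads on genes in ASK1f/f livers. In ASK1+hep livers it was 0.890 to 1.06 times them, so the deposited values were not scaled by reads on genes alone. The planned fit was limma 3.58.1 (R 4.3.3, mean-variance trend) on log2(FPKM + 1). A test on counts had been planned only for the case of a table of counts, and the unit is FPKM. The fit was tested on simulated data. Exact permutation tests used scipy 1.17.1 and coding sequences were aligned with Biopython 1.88. Whether the livers were separate litters is not stated.

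Named were the 10 genes, the other carboxylesterase genes, Map3k5, of each list those at an unadjusted p under 0.05 (at most 4) or the lowest p, and 3 most similar genes per family. The genes and lists were chosen with earlier results of these data known. Alternatives were another filter or none, a pseudocount of 0.1, limma-voom with and without quality weights, scaling by all reads, a replicate block, the letter prefix of the sample titles (SN or CC) as covariate, and each liver left out.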

Additional observations from a re-analysis of the deposited data

Results flagged for a closer look

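In groups of 5 livers a value was set aside when its gap to the nearest other liver exceeded 0.71 of the group's range, a limit that chance passes in about 1 of 20 groups. Of 22 groups examined, 2 held such a value. In ASK1+hep replicate 5 the level of Ces1d was 255 FPKM, a gap of 0.802 of the range, against 142 to 165 FPKM in the other 4 ASK1+hep livers. The other was Map3k5, at 19.8 FPKM for the library labelled ASK1f/f replicate 5 and a gap of 0.856 of the range.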

How the results depend on the processing

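Of 180 refits of the log2 fold changes of the 10 carboxylesterase genes, 164 kept their direction and their side of an unadjusted p of 0.05, 10 passed it newly and 6 changed sign. Ces1g and Ces2e kept direction and side in 18 of 18 refits each. Ces1f changed sign with limma-voom with quality weights (−0.0023) and scaling by all reads (−0.0019), and Ces1e ranged from −0.18 to 0.10 with 1 liver left out. Members at an unadjusted p under 0.05 numbered 4 with quality weights, beside 972 of all genes (7.30%), and 2 to 5 with 1 liver left out, 5 without the library labelled ASK1f/f replicate 5. Genes at an unadjusted p under 0.05 numbered 1222 with no filter and 557 to 1724 with 1 liver left out. They numbered 1178 without ASK1+hep replicate 1, 1724 without ASK1+hep replicate 5 and 779 without the library labelled ASK1f/f replicate 5. Past the adjusted threshold was 1 gene, Fgf21, with quality weights (log2 fold change 2.38, limma adjusted p = 0.0445) and without ASK1+hep replicate 5, and 0 to 1 genes with 1 liver left out. Non-overlapping groups numbered 320 without the library labelled ASK1f/f replicate 5; leaving it out there and for the level order, the correlations and the lists was chosen after seeing the data. The causes were not tested. The order of levels held in both genotypes and by the median.

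With the replicate block 880 genes and 3 members (Ces2c in addition, limma adjusted p = 0.727) had an unadjusted p under 0.05 and 0 passed adjustment. Same-numbered livers correlated with r of 0.021 to 0.174, above 0.1 in 2 of 5 pairs (mean 0.107, against −0.0275 for different numbers). Of the ASK1f/f replicates 4 of 5 correlated best with their own number, replicate 3 with number 5. In 4 of 5 pairs the sample titles carry consecutive numbers, but no label says what the titles stand for or that a replicate number marks a litter. The replicate numbers were therefore not taken as pairs. The lowest count of the 10 genes was 174 reads.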
